A study of Homo sapiens with 6 samples.

Results

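10 secreted signals were followed in PANC-1 cells, a human pancreatic carcinoma line, after exposure to Schisandrin B, a lignan of Schisandra fruit. They are the CXC chemokines CXCL1, CXCL2, CXCL3, CXCL5 and CXCL8, the interleukin-1 ligands IL1A and IL1B, and the interleukin-6 family cytokines IL6, IL11 and LIF. The 10 genes were chosen by name, with no expression value in the rule, but with earlier results of these data known. All 10 are among the 63241 genes of the count table. Of these, 15773 genes, and 9 of the 10, had enough counts to be tested. The cells were wild type and were kept for 24 h in 20 µM Schisandrin B or in vehicle alone, DMSO at less than 0.1%. Each group has 3 RNA-seq libraries, all from the same cell line, at a single dose and a single time. The labels do not say whether the libraries of a group came from separate cultures, so a p-value here measures only the spread between these libraries, which may be technical.

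CXC chemokines of this set carry a Glu-Leu-Arg motif and draw neutrophils through the receptors CXCR1 and CXCR2, and their genes lie together on chromosome 4. IL1A and IL1B act through IL1R1 and its partner IL1RAP, which start a signal chain to NF-kB, a factor that drives many chemokine genes. IL6, IL11 and LIF share the receptor subunit gp130 (gene IL6ST) and signal through JAK kinases to STAT3, and LIF and IL6 are known signals between carcinoma cells and stroma in pancreatic cancer.

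The libraries held 13656826 to 18289410 counts. The markers fixed for a pancreatic duct carcinoma line were present in part. Of 10, 7 were tested, with 6 lower and 1 higher (edgeR adjusted p under 0.05). Over all tested genes 35.2% were lower and 35% higher. KRT8 fell from 734 ± 24.7 to 275 ± 2.19 CPM (mean ± SD, n = 3, edgeR adjusted p = 6.54e-15). CPM is the count of a gene relative to library size, here scaled by the trimmed mean of M values (TMM). With vehicle VIM, CD44, KRT18, SOX9 and KRT19 were at 10819, 1963, 512, 300 and 108 CPM, and each fell. MUC1 rose from 6.05 to 9.02 CPM. KRT7, EPCAM and CDH1 were not tested, with 8, 14 and 7 counts summed over the vehicle libraries. Of 14 immune cell markers, 4 had no count in any library and 2 were tested, CD68 and ITGAM. The summed level of the 14 was 26.6 to 29.3 CPM with vehicle and 51.8 to 59.5 CPM with Schisandrin B, and CD68, also a lysosomal gene of other cells, made up most of it, at 26.1 ± 1.65 and 53.7 ± 3.25 CPM. PTPRC, the pan-leukocyte marker, had 3 counts over the vehicle libraries and 13 over the Schisandrin B libraries, and MS4A1, FCGR3B and MPO had 0. Of 10 fibroblast and endothelial markers, 3 were tested, COL1A2, CDH5 and COL1A1, and all 3 fell (COL1A1 not without vehicle replicate 3 or Schisandrin B replicate 1). COL1A1 had 16, 22 and 31 counts with vehicle and 9, 13 and 12 with Schisandrin B. It met the low-count filter in all vehicle libraries but not in all treated libraries. The summed level of the 10 was 229 to 245 CPM with vehicle and 45.4 to 47.1 CPM with Schisandrin B. The part of these markers in the cytokine values was not tested. In bulk RNA, a change in the number of cells that make a transcript and a change in RNA per cell cannot be told apart.

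Because promoters of CXC chemokines are read by NF-kB, the stretch of 180 bases before the RefSeq start of 6 of the genes is printed here (GRCh38.p14, gene strand, 5′ to 3′). They were chosen to set CXCL1, CXCL2 and CXCL3, whose promoters resemble each other, beside CXCL5, CXCL8 and IL1A. Capitals mark matches to GGAATTTCC, a kappa-B form, to TGANTCA, the AP-1 form, and to ACGTCA, the core of the cAMP response element. The coordinates are chr4:73869213-73869392 for CXCL1, chr4:74099196-74099375 for CXCL2, chr4:74038690-74038869 for CXCL3, chr4:73998678-73998857 for CXCL5, chr4:73740389-73740568 for CXCL8 and chr2:112784494-112784673 for IL1A. CXCL1 and CXCL8 lie on the plus strand, the other 4 on the minus strand.
CXCL1: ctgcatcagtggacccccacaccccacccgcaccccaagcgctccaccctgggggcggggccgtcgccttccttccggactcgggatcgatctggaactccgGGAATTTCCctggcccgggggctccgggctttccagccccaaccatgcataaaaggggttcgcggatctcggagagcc
CXCL2: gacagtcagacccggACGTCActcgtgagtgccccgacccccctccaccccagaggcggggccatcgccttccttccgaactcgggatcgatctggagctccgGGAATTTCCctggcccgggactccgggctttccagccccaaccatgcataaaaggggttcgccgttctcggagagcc
CXCL3: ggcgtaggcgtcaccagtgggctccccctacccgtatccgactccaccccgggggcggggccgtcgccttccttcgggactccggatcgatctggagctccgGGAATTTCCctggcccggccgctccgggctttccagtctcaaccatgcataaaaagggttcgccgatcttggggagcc
CXCL5: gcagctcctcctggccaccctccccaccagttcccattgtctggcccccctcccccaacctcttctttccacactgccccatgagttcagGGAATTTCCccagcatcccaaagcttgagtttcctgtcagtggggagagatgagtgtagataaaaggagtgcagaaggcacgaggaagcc
CXCL8: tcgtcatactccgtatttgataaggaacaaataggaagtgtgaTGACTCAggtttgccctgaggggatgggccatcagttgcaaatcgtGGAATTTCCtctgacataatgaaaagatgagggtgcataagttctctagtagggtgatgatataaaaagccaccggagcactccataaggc
IL1A: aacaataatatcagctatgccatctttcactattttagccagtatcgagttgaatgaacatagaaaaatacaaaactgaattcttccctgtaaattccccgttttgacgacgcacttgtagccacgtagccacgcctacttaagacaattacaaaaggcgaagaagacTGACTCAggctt
All 5 CXC ligands hold GGAATTTCC, at 78, 77, 78, 90 and 91 bases before the start for CXCL1, CXCL2, CXCL3, CXCL5 and CXCL8 (first base of the match). Both strands of 250 bases were searched, and no 2 matches in these genes overlap. The same letters occur in 0.415% of 34943 RefSeq promoters of that length. The strings were picked after the data were seen, and other kappa-B forms were not searched. TGANTCA is in the promoters of CXCL8, IL1A and IL11, and in 6.59% of all promoters. ACGTCA is in those of CXCL2 and IL6, and in 7.09% of all promoters. None of the 3 letter strings is in the window of IL1B, which says only that these letters are not there. The promoter table matched 9 of the 10 genes, all but LIF. Over an alignment of the 250 bases before the start, with gaps counted in its length, CXCL1 and CXCL3 were 81.4% identical. CXCL2 and CXCL3 were 73.3% identical and CXCL1 and CXCL2 68.0%. CXCL5 was 48.9% to 50.7% identical with these 3, and CXCL8 40.5% to 45.0%. A match of letters is a description of sequence, and the genes that share it include, as the values that follow show, those with the smallest and the largest increase among the called genes.

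Schisandrin B raised 8 of the 9 tested cytokine genes and lowered 0, with the tests of edgeR's quasi-likelihood method adjusted over all 15773 genes (adjusted p under 0.05). Most genes in this experiment changed: 70.2% of tested genes passed, 35% higher and 35.2% lower, so that passing the test alone does not set a gene apart. Against a limit of 2-fold, which 13.5% of all tested genes passed, 8.21% higher and 5.25% lower, 5 of the 9 passed and all 5 were higher: CXCL2, CXCL8, IL1A, IL1B and LIF. The libraries of the 2 groups did not overlap for 8 of the 9 genes, all higher, against 73.5% of all tested genes, 36.4% higher and 37.1% lower. The median log2 change of the 9 was 1.68, beside 0.00 for all tested genes. Together the 10 genes took 0.0364% to 0.0401% of all counts with vehicle and 0.127% to 0.141% with Schisandrin B.

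**Figure D1:**
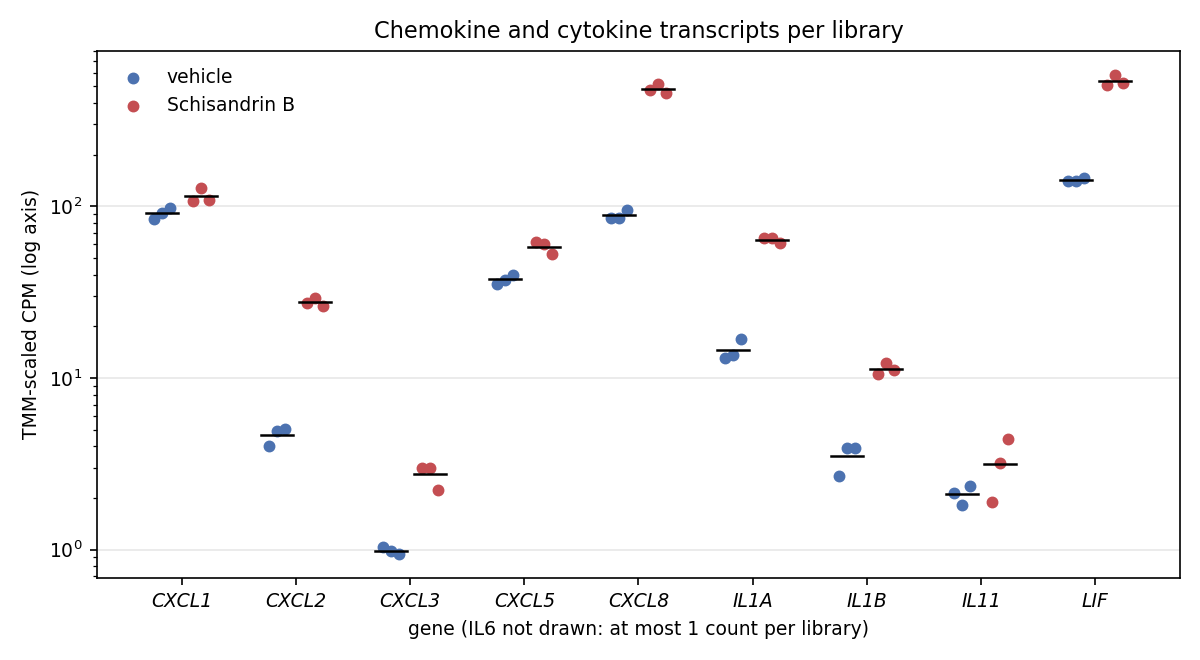
TMM-scaled CPM (log axis) of the 9 tested genes in the 3 vehicle and 3 Schisandrin B libraries; points are libraries and bars are group means. The 2 groups are apart for every gene drawn except IL11, and IL6, with 1 count in 1 vehicle library, is not drawn.

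CXCL8 (interleukin-8, ENSG00000169429, chr4:73740519-73743716, plus strand, GRCh38), the main human neutrophil attractant, stood at 86.0, 85.8 and 94.7 CPM in vehicle replicates 1 to 3 and at 478, 516 and 456 CPM in Schisandrin B replicates 1 to 3. Every treated library lay far above every vehicle library. The increase was 5.44-fold (95% interval 5.02 to 5.89; log2 change 2.44, SE 0.05; adjusted p = 1.7e-15, and 3.55e-13 against the 2-fold limit), higher than for 98.0% of all tested genes. CXCL2 (MIP-2 alpha, ENSG00000081041, chr4:74097040-74099196, minus strand), a ligand of CXCR2, went from 4.01, 4.90 and 5.06 CPM to 27.2, 29.3 and 26.3 CPM. The 3 treated libraries differed little among themselves and none came near the vehicle range. CXCL2 had the largest fold of the 10 genes, 5.89-fold (4.98 to 6.97; log2 change 2.56, SE 0.12; adjusted p = 3.06e-12, and 8.76e-10 against the 2-fold limit).

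CXCL1 (GRO-alpha, ENSG00000163739, chr4:73869393-73871308, plus strand), also a CXCR2 ligand, was abundant before treatment and rose little. It had 84.6, 91.5 and 97.5 CPM with vehicle and 107, 128 and 109 CPM with Schisandrin B. The highest vehicle library stayed below the lowest treated library, by a gap smaller than the spread of the treated libraries. Its increase was 1.25-fold (1.12 to 1.40; log2 change 0.33, SE 0.07; adjusted p = 0.00167) and it did not pass the 2-fold limit (adjusted p = 1). CXCL5 (ENA-78, ENSG00000163735, chr4:73995642-73998677, minus strand), a CXCR2 ligand known as a product of epithelial cells, had 35.2, 37.3 and 40.1 CPM and then 61.8, 60.0 and 52.7 CPM. The groups were apart, with Schisandrin B replicate 3 the lowest of the treated libraries. It rose 1.55-fold (1.39 to 1.72; log2 change 0.63, SE 0.07; adjusted p = 5.58e-07; 1 against the 2-fold limit). A long non-coding gene on the opposite strand overlaps CXCL5 and had 54 and 104 counts in the 2 groups, beside 1728 and 2602 for CXCL5, and no source used here says whether counting used strand.

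CXCL3 (GRO-gamma, ENSG00000163734, chr4:74036589-74038807, minus strand) was scarce, with 14, 14 and 17 counts in the vehicle libraries and 49, 43 and 31 in the treated libraries. Scaled to CPM, these were 1.04, 0.981 and 0.945, and then 3.00, 3.00 and 2.23. No treated library reached down to the vehicle range, but the treated libraries spread widely around their mean of 2.74 ± 0.442 CPM. The increase was 2.78-fold, with a wide interval of 1.89 to 4.08 that spans 2-fold (log2 change 1.47, SE 0.26; adjusted p = 9.3e-05, and 0.0856 against the 2-fold limit).

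CXCL1, CXCL2 and CXCL3 are close paralogs, and their transcripts share sequence. Of all 50-base windows in the longest protein-coding GENCODE 29 transcript, 5.73% of those of CXCL1, 9.24% of CXCL2 and 5.26% of CXCL3 also occur in transcripts of another gene, and no window of 100 bases does. No source used here gives the read length, so how reads from the shared stretches were split is uncertain. The sum of the 3 genes does not depend on that split, provided that shared reads were counted for 1 of the 3. Whether such reads were counted or dropped is not known. The sum was 1209, 1390 and 1863 counts with vehicle and 2249, 2297 and 1906 with Schisandrin B. The summed level rose by a log2 change of 0.58 (SE 0.07; adjusted p = 7.66e-06; 1 against the 2-fold limit).

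Levels of different genes were compared with the deposited FPKM values, which divide by transcript length and by depth. With vehicle the order was CXCL1, CXCL8, LIF, CXCL5, IL1A, CXCL2, IL1B, IL11, CXCL3 and IL6, and no 2 neighbours in it had overlapping ranges. With Schisandrin B it became CXCL8, LIF, CXCL1, IL1A, CXCL2, CXCL5, IL1B, CXCL3, IL11 and IL6. There the ranges of CXCL2 and CXCL5 overlapped, as did those of CXCL3 and IL11. CXCL8 was at 48.6 ± 2.39 FPKM with vehicle and 278 ± 14.2 FPKM with Schisandrin B (SD, n = 3), and CXCL1 at 67.0 ± 5.02 and 88.2 ± 6.63 FPKM. The leading chemokine transcript therefore changed from CXCL1 to CXCL8. LIF, at 31.4 ± 0.970 and then 122 ± 5.65 FPKM, overtook CXCL1 as well. IL1A passed CXCL5, going from 6.11 ± 0.899 to 27.9 ± 1.32 FPKM while CXCL5 went from 13.1 ± 0.897 to 21.0 ± 2.00 FPKM. At the low end, CXCL3 moved from 0.735 ± 0.0584 to 2.16 ± 0.466 FPKM and IL11 was at 0.854 ± 0.0253 and 1.42 ± 0.586 FPKM. Before treatment the CPM of LIF was higher than that of 90.7% of all tested genes, CXCL1 than 84.2% and CXCL8 than 83.8%, and CXCL3 than 10.3%.

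Ratios between genes of 1 library do not depend on how libraries were scaled to each other. FPKM ratios do depend on the gene lengths used for each library, and no ratio was recomputed with fixed lengths. CXCL8 per CXCL1 was 0.727 ± 0.0190 with vehicle and 3.16 ± 0.159 with Schisandrin B, and CXCL2 per CXCL1 was 0.0547 ± 0.00531 and 0.283 ± 0.0142. CXCL2 per CXCL3 went from 5.05 ± 1.04 to 11.8 ± 1.89 and CXCL8 per LIF from 1.55 ± 0.0530 to 2.27 ± 0.100. For each of these 4 ratios of FPKM all treated libraries lay above all vehicle libraries (exact two-sided permutation p = 0.1, the smallest possible, and 0.125 adjusted by Benjamini-Hochberg over the 5 ratios computed).

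The sum of the 5 CXC ligands rose 3.11-fold, from 133 ± 8.78 to 414 ± 23.2 FPKM (exact two-sided permutation p = 0.1, the smallest that 3 against 3 libraries can give). CXCL8 made up 37.2%, 36.4% and 36.0% of that sum in the vehicle libraries and 67.5%, 66.4% and 67.4% in the treated libraries. CXCL1 made up 49.8%, 50.3% and 50.7%, and then 20.3%, 22.1% and 21.5%. The mix of chemokine transcripts thus moved toward CXCL8 in every treated library, and both shares had an exact p of 0.1 (0.125 adjusted over the 5 shares). CXCL2 went from 2.75% ± 0.284 to 6.02% ± 0.140 and CXCL5 from 9.84% ± 0.101 to 5.07% ± 0.349 (exact p = 0.1 for each). CXCL3 stayed a small part of the sum, at 0.554% ± 0.0637 and 0.520% ± 0.0949 (exact p = 0.6).

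**Figure D2:**
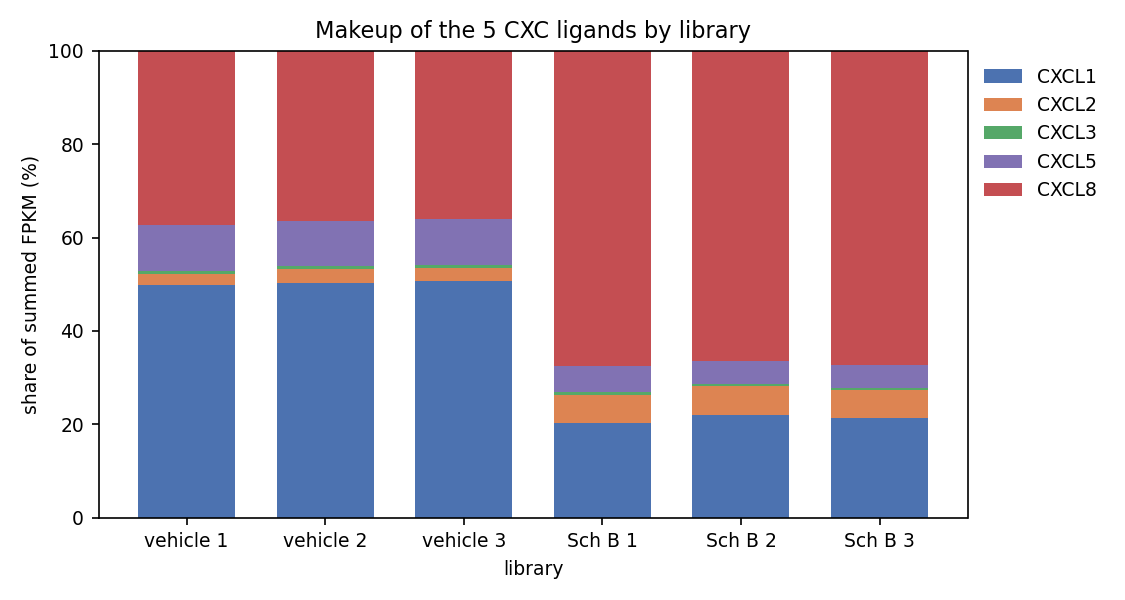
Share (percent) of each CXC ligand in the summed FPKM of the 5 ligands, in each of the 3 vehicle and 3 Schisandrin B libraries. CXCL1 leads in the vehicle libraries at about 50.3% and CXCL8 in the treated libraries at about 67.1%.

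IL1A (interleukin-1 alpha, ENSG00000115008, chr2:112773925-112784493, minus strand), an alarmin that is active without cleavage, had 13.1, 13.6 and 16.8 CPM with vehicle and 65.1, 65.4 and 61.4 CPM with Schisandrin B. The treated libraries lay close together and far above all vehicle libraries. It rose 4.38-fold (3.85 to 4.99; log2 change 2.13, SE 0.09; adjusted p = 9.42e-13, and 1.4e-09 against the 2-fold limit). IL1B (interleukin-1 beta, ENSG00000125538, chr2:112829751-112836816, minus strand), which needs cleavage of its precursor to signal, had 2.67, 3.92 and 3.89 CPM and then 10.5, 12.3 and 11.2 CPM. Its groups were also well apart, with vehicle replicate 1 the lowest library. The increase was 3.21-fold (2.52 to 4.10; log2 change 1.68, SE 0.17; adjusted p = 9.32e-08, and 8.31e-04 against the 2-fold limit). IL1A transcripts outnumbered IL1B transcripts per length in both groups, by an FPKM ratio of 3.30 ± 0.686 with vehicle and 4.11 ± 0.404 with Schisandrin B. The exact two-sided permutation test did not separate the groups in this FPKM ratio (p = 0.3). With vehicle IL1A had 176, 194 and 303 raw counts and IL1B 36, 56 and 70. With Schisandrin B they had 1064, 938 and 852, and 172, 176 and 155. By these counts IL1A per IL1B was higher in every treated library than in every vehicle library, which was not tested.

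LIF (leukaemia inhibitory factor, ENSG00000128342, chr22:30240453-30246759, minus strand) was the most abundant of the interleukin-6 family ligands here, with 140, 140 and 146 CPM in the vehicle libraries and 506, 584 and 523 CPM in the treated libraries. The vehicle libraries were nearly level, and each treated library exceeded all of them. The increase was 3.78-fold (3.51 to 4.09; log2 change 1.92, SE 0.05; adjusted p = 1.3e-14, and 3.36e-11 against the 2-fold limit). Both LIF-AS1, with 128 and 35 counts in the vehicle and treated group, and LIF-AS2, with 200 and 478, lie on the opposite strand and overlap LIF, which had 6515 and 23911 counts. Reads of the overlapping stretches may count for either gene where strand was not used.

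IL11 (interleukin-11, ENSG00000095752, chr19:55364382-55370463, minus strand), a cytokine linked to fibrosis and tumour growth, had 2.15, 1.82 and 2.33 CPM with vehicle and 1.90, 3.21 and 4.39 CPM with Schisandrin B. The groups overlap, since Schisandrin B replicate 1 lies among the vehicle libraries. The difference did not pass the test (1.49-fold, 0.986 to 2.24; log2 change 0.57, SE 0.28; adjusted p = 0.0786). Without Schisandrin B replicate 1 the log2 change was 0.85 (adjusted p = 0.00842), and leaving out each library in turn gave values from 0.26 to 0.85. IL6 (interleukin-6, ENSG00000136244, chr7:22725884-22732002, plus strand) had 1 count in vehicle replicate 1 and 0 in the other 5 libraries and was not tested. A count of 0 over the treated group allows up to 0.0682 CPM, so IL6 was not detectable in treated cells at this depth.

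**Figure D3:**
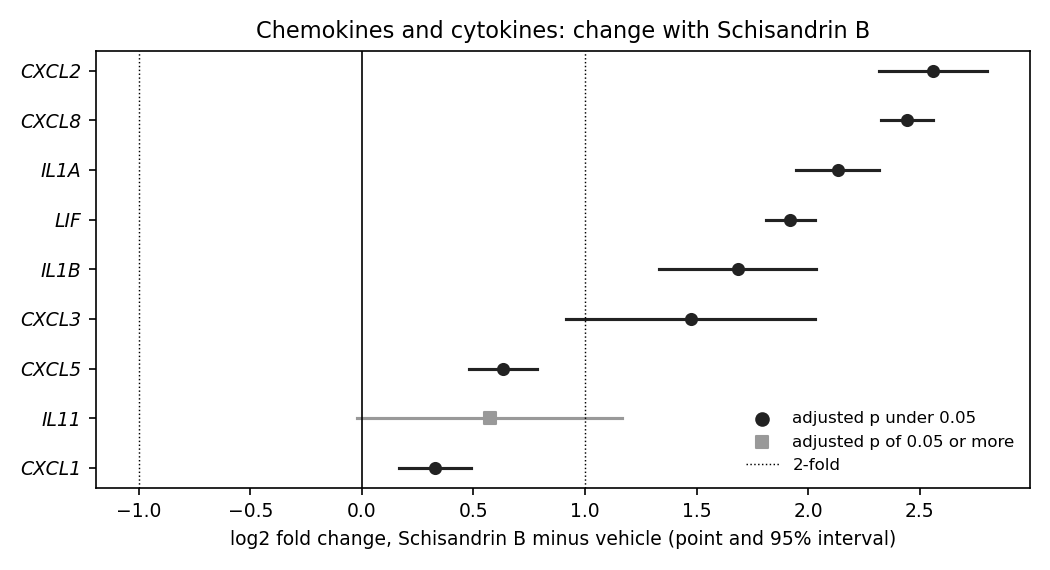
Log2 change, Schisandrin B against vehicle, of the 9 tested genes with 95% intervals from edgeR; dotted lines mark a 2-fold change. CXCL2 is highest at 2.56 and CXCL1 lowest of the called genes at 0.33, and the interval of IL11 crosses 0.

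The fold changes in the authors' deposited table are close to these, with log2 changes of 2.52 for CXCL2, 2.40 for CXCL8, 2.09 for IL1A, 1.88 for LIF, 1.64 for IL1B and 1.44 for CXCL3. The authors' deposited table marks these 6 genes as Up and leaves CXCL1 (log2 change 0.29) and CXCL5 (0.59) unmarked.

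Family members outside the 10 did not move as a block. Counts of called genes stand here beside 35% higher and 35.2% lower of all tested genes. Of 12 other CXC ligands, 2 were tested and both fell. CXCL6 (GCP-2) is the gene next to CXCL8 and closest in sequence to CXCL5. It had 4.38, 5.11 and 3.56 CPM with vehicle and 1.04, 1.12 and 1.59 CPM with Schisandrin B. Every treated library was below every vehicle library. CXCL6 fell 3.48-fold (log2 change -1.80, SE 0.25; adjusted p = 5.84e-06, and 0.00561 against the 2-fold limit), opposite to the 5 CXC ligands among the 10. CXCL16, a membrane-bound chemokine with another receptor, fell less (log2 change -0.36; adjusted p = 2.09e-04). Of 10 other interleukin-1 family genes, 2 were tested: IL18BP, the decoy that binds interleukin-18, rose 2.45-fold (adjusted p = 4.69e-08), and IL18 was at 0.698 ± 0.0595 and 0.537 ± 0.420 CPM (adjusted p = 0.561). IL1RN, the natural antagonist of the interleukin-1 receptor, and IL33 had 0 counts in all 6 libraries. Of 8 other interleukin-6 family ligands, 4 were tested, with 1 higher and 2 lower: CLCF1 rose 1.89-fold (adjusted p = 5.42e-07) and CTF1 fell 1.40-fold (adjusted p = 2.46e-04). OSM, picked out after its values were seen, went from 1 to 22 counts over the groups, a ratio of 23.3 with an exact counting interval of 3.76 to 960, and was not tested.

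On the long arm of chromosome 4, the genes from CXCL8 to CXCL2 span 359 kb that hold 20 genes of the table, 12 of them with any count. Of the 7 other tested genes in a list of this region and its flanks, 5 rose, and CXCL6 fell. Among all tested genes 35% were called higher and 35.2% lower. The 4 risers that encode epidermal growth factor receptor ligands stand beside the chemokines: EPGN rose from 9.56 ± 1.01 to 53.4 ± 0.903 CPM (log2 change 2.47), AREG from 76.5 ± 0.295 to 177 ± 6.55 CPM (1.21), EREG from 385 ± 15.5 to 859 ± 46.7 CPM (1.16) and BTC from 25.2 ± 1.51 to 53.6 ± 2.40 CPM (1.09). PARM1 rose as well (1.29), and MTHFD2L, at a log2 change of -0.23, did not pass the test (adjusted p = 0.107; 0.0294 without Schisandrin B replicate 2). Near the interleukin-1 genes on chromosome 2, 62.9 kb from the start of IL1A to the end of IL1B, CKAP2L, a mitotic spindle gene, fell 4.93-fold (log2 change -2.30; adjusted p = 1.49e-12).

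**Figure D4:**
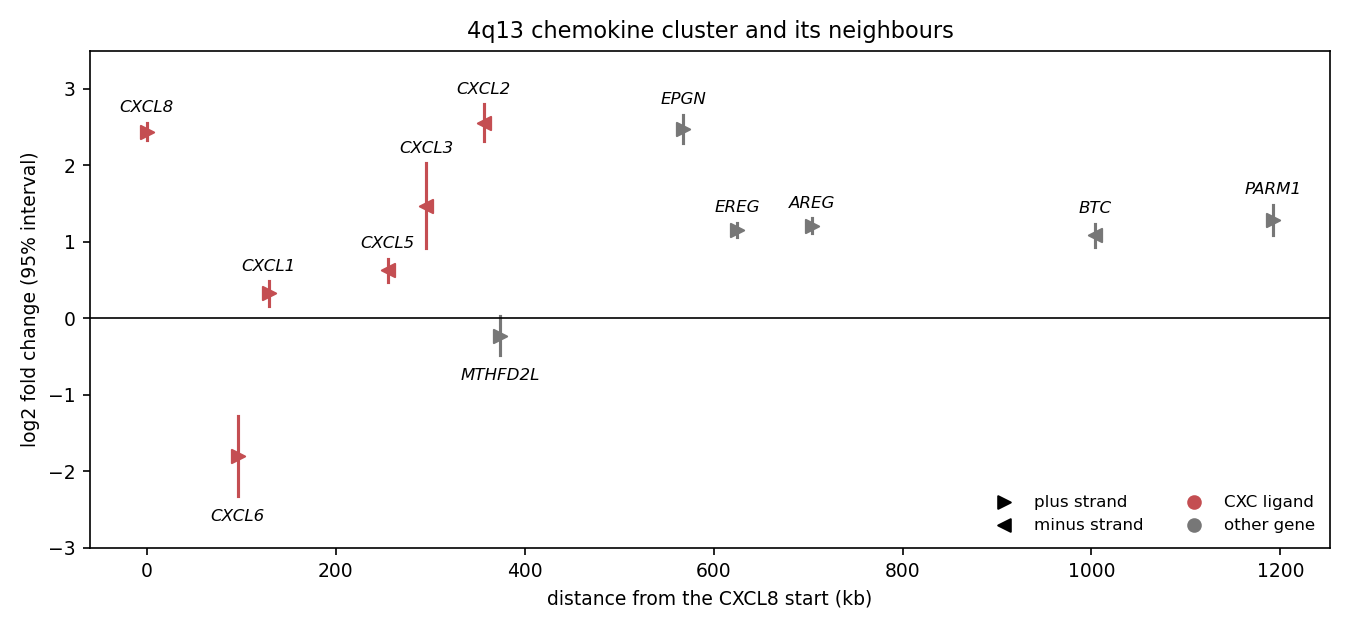
Log2 change with 95% interval (y axis) of the tested genes of the chromosome 4 chemokine region against distance from the start of CXCL8 in kb (x axis). CXCL6, at -1.80, lies between chemokine genes that rose, and EPGN reaches 2.47.

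The receptors of these ligands gave a mixed picture. CXCR1 had 0 counts in all libraries and CXCR2 had 0 over the vehicle and 3 over the treated libraries, so transcripts of the receptors of the CXC ligands were at or under the limit of detection. ACKR3, a scavenger receptor, was the only one of 8 CXC receptor genes tested (log2 change -0.69; adjusted p = 0.0582), and without vehicle replicate 3 its adjusted p was 0.0140. IL1R1, the signalling receptor of both interleukin-1 ligands, fell from 57.7 ± 4.08 to 36.0 ± 0.740 CPM (1.60-fold; adjusted p = 6.99e-08). Its partner IL1RAP rose from 4.24 ± 1.14 to 14.3 ± 2.11 CPM (3.39-fold; adjusted p = 2.85e-07, and 7.18e-04 against the 2-fold limit).

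Of 8 interleukin-6 family receptors, 7 were tested, 4 rose and 0 fell, with a median log2 change of 0.75. Over all tested genes 35% were called higher and 35.2% lower, with a median of 0.00. IL6ST, the shared subunit gp130, had 105, 99.3 and 110 CPM with vehicle and 177, 181 and 171 CPM with Schisandrin B. All 3 treated libraries were above the vehicle range. It rose 1.68-fold (log2 change 0.75, SE 0.05; adjusted p = 3.04e-10). LIFR, which pairs with gp130 to bind LIF, rose 2.13-fold, from 18.1 ± 2.34 to 38.6 ± 0.532 CPM (adjusted p = 1.16e-08), and OSMR, the oncostatin M receptor, 3.01-fold, from 138 ± 2.47 to 416 ± 24.7 CPM (adjusted p = 1.28e-14). IL6R rose 1.96-fold at low level (adjusted p = 3.79e-04). IL11RA was at 3.03 ± 0.460 and 2.85 ± 0.934 CPM (adjusted p = 0.737). Transcripts of LIF and of both subunits of its receptor were thus higher after treatment.

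Downstream of the interleukin-1 receptor, 17 of 18 signal chain genes were tested, with 6 higher, 4 lower and a median log2 change of -0.03. The shares over all tested genes were 35% higher and 35.2% lower. RELA, the main NF-kB subunit, was at 95.2 ± 4.21 and 96.4 ± 1.58 CPM (adjusted p = 0.732). NFKB2 rose 1.58-fold (adjusted p = 1.18e-09) and IRAK2, a kinase of the receptor complex, 2.20-fold (adjusted p = 9.13e-09). TAB1, an adaptor of the kinase TAK1, fell 2.14-fold (adjusted p = 1.57e-09). Of 16 NF-kB feedback and target genes outside the 10, 11 were tested, 6 rose and 4 fell; without vehicle replicate 2 or vehicle replicate 3, 2 fell. CSF3, encoding the neutrophil growth factor G-CSF, had 48.7, 48.0 and 50.9 CPM with vehicle and 273, 308 and 299 CPM with Schisandrin B. The rise of CSF3 was as steep as that of the leading chemokines, 5.95-fold (log2 change 2.57, SE 0.05; adjusted p = 2.74e-16). BIRC3 rose 1.76-fold (adjusted p = 1.23e-08) and CSF1 1.28-fold (adjusted p = 1.26e-06). NFKBIA, which encodes the inhibitor that NF-kB itself induces, was 1.08-fold lower with an adjusted p of 0.0443, a call that was lost under 9 of 16 alternatives, among them without vehicle replicate 2, vehicle replicate 3 or Schisandrin B replicate 1.

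Downstream of gp130, 9 of 10 signal chain genes were tested, with 2 higher, 4 lower and a median log2 change of -0.13. The shares over all tested genes were 35% higher and 35.2% lower. STAT3 had 235, 240 and 227 CPM with vehicle and 93.5, 91.7 and 98.4 CPM with Schisandrin B. STAT3 transcripts were far lower in every treated library, by 2.47-fold (log2 change -1.31, SE 0.05; adjusted p = 1.05e-13, and 5.16e-06 against the 2-fold limit). JAK1 rose 1.27-fold (adjusted p = 6.25e-06). Of 12 STAT3 target and feedback genes, 10 were tested, 5 rose and 3 fell. SOCS3, the feedback inhibitor that STAT3 induces, fell 3.11-fold, from 2.67 ± 0.320 to 0.856 ± 0.0724 CPM (adjusted p = 3.61e-05). CEBPB, a factor that is itself an activator of cytokine genes, rose 4.06-fold, from 79.8 ± 6.46 to 325 ± 10.6 CPM (adjusted p = 6.62e-15). BCL3 fell 2.13-fold (adjusted p = 1.54e-07) and MCL1 rose 1.30-fold (adjusted p = 3.05e-07).

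**Figure D5:**
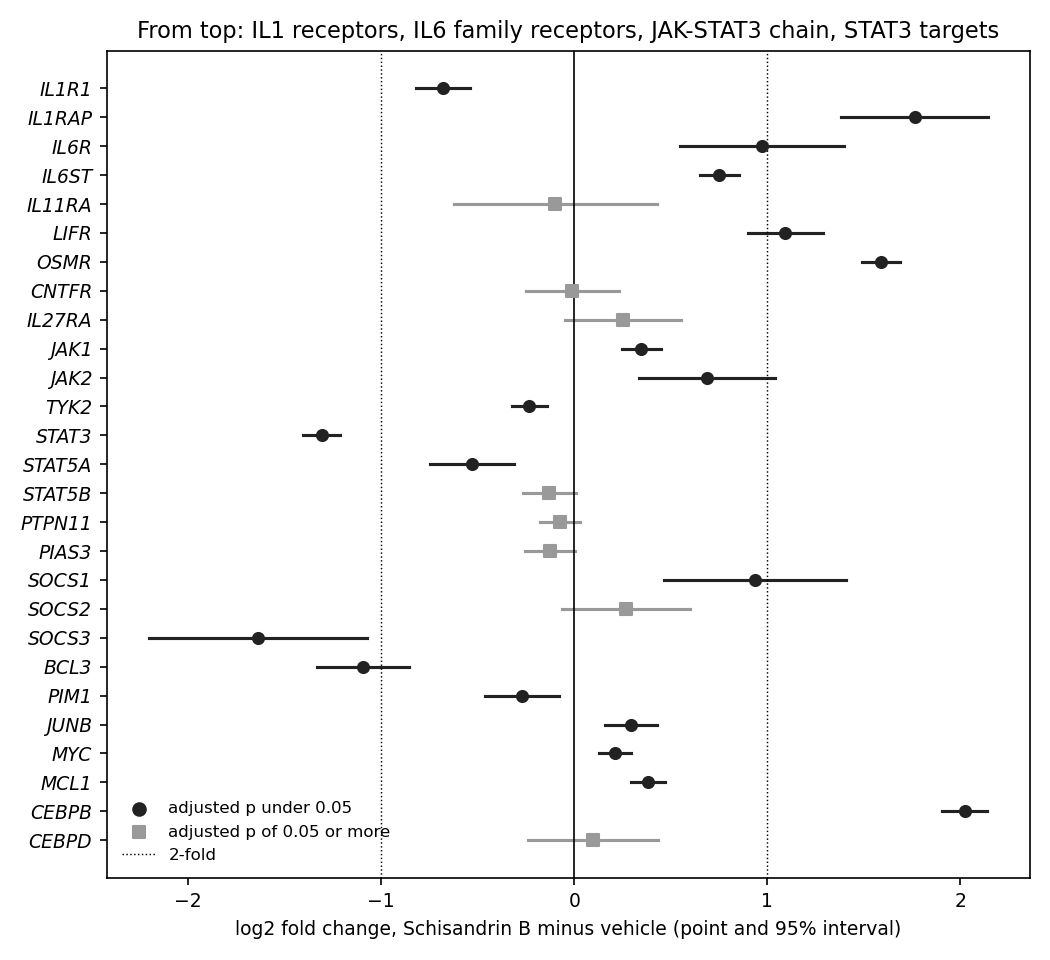
Log2 change, Schisandrin B against vehicle, with 95% intervals from edgeR, of tested interleukin-1 and interleukin-6 family receptors, JAK-STAT3 chain genes and STAT3 targets; dotted lines mark a 2-fold change. CEBPB lies highest at 2.02, and SOCS3 (-1.64), STAT3 (-1.31) and BCL3 (-1.09) lie below the lower 2-fold line.

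Genes that process, release or degrade these cytokines or their mRNAs were called in both directions, in an experiment in which 70.2% of all tested genes were called. CAPN1, a calpain of the family that cleaves the interleukin-1 alpha precursor, fell 1.89-fold (adjusted p = 4.27e-12), and CAPN2 fell 1.24-fold (adjusted p = 1.05e-06). CASP1, the protease that cleaves the interleukin-1 beta precursor, had 3 counts over the vehicle and 0 over the treated libraries. NLRP1, an inflammasome sensor, had 2, 0 and 2 counts with vehicle and 16, 14 and 15 with Schisandrin B, and passed the low-count filter only through the treated libraries. In all, 6 of 12 inflammasome and processing genes were tested, 4 higher and 2 lower, but NLRP1 and NLRC4, both among the higher ones, entered the test only through the treated group, and with a filter of 5 CPM in 3 libraries 2 were higher. ADAM17, the sheddase of the interleukin-6 receptor, rose 2.84-fold, from 57.2 ± 5.97 to 162 ± 4.31 CPM (adjusted p = 5.64e-12), and MMP14, a membrane metalloprotease, 5.10-fold (adjusted p = 2.06e-09), 2 of 4 tested shedding genes. Cytokine mRNAs carry AU-rich elements, and of 12 regulators that bind these or stem-loop elements 4 rose and 6 fell. KHSRP, a decay factor, fell 1.82-fold (adjusted p = 3.37e-12), ELAVL1, a stabilising factor, 1.89-fold (adjusted p = 6.76e-12), and ZFP36L1, a decay factor, rose 1.56-fold (adjusted p = 1e-10). ZFP36, which encodes the decay factor tristetraprolin, was 1.29-fold higher (adjusted p = 0.0455), and that call was lost on leaving out vehicle replicate 1 or 3 or any of the Schisandrin B libraries. Without vehicle replicate 1, vehicle replicate 3, Schisandrin B replicate 2 or Schisandrin B replicate 3, 2 of the 12 regulators rose.

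A list held 20 genes often named as the senescence-associated secretory set and not among the 10. Of these, 10 were tested, 7 rose and 2 fell, with a median log2 change of 1.18. Over all tested genes 35% were called higher and 35.2% lower, with a median of 0.00. VEGFA, the angiogenic factor, rose 6.13-fold, from 21.3 ± 1.55 to 131 ± 11.3 CPM (adjusted p = 2.49e-14). The set overlaps the chromosome 4 neighbours AREG and EREG. Without vehicle replicate 2, Schisandrin B replicate 1 or Schisandrin B replicate 3, 1 of the 10 fell.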

How the data were processed

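RNA was sequenced from PANC-1 cells of 2 groups with 3 libraries each. The authors deposited a table of raw gene counts, FPKM values and their own comparison (fold ratio, log2 change and p-value columns); no source used here names the aligner or counter. Genome builds named in the submitters' processing notes are GRCh38 and mm10, and the gene positions used here lie on GRCh38.

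From the deposited counts, edgeR 4.0.16 (R 4.3.3) gave TMM factors, a low-count filter (filterByExpr) and robust quasi-likelihood F-tests on the 63241-gene table, with Benjamini-Hochberg adjustment over 15773 tested genes; glmTreat tested against a 2-fold limit. Fold intervals are 95%. Levels between genes used the deposited FPKM, with exact two-sided permutation tests. The deposited FPKM of GPX4 in Schisandrin B replicate 1 was far out of proportion to its counts. The alternative fit on FPKM left that gene out and tested 15772 genes. limma 3.58.1 and DESeq2 1.42.0 were alternatives. The procedure was checked on simulated data. A floor is 3 counts and covers counting error only, since no molecular identifiers are described. Replicates of a group differed beyond sampling noise (chi-square per gene 3.73 to 5.87).

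The 10 genes and all lists were chosen with earlier results of these data known. From each list up to 3 genes with the smallest adjusted p are named, plus a fixed set of receptors, regulators and neighbours. All 7 tested duct carcinoma markers are named as well. CASP1, NLRC4, OSM, PTPRC and the markers at or near 0 were named after their values were seen. The ratio of IL1A to IL1B is 1 of 5 ratios computed after seeing the data, as were the promoter motifs and shared windows. Some genes of the lists are counted but not reported here by name.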

Additional observations from a re-analysis of the deposited data

How the results depend on the processing

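Between 7 and 9 of the 10 genes were called higher over 17 alternatives (other scaling factors, filters, DESeq2, limma, the deposited FPKM, a stricter threshold and leaving out each library), and 0 were lower in any of them. The count of 7 came from a filter of 5 CPM in 3 libraries, which removed CXCL3 and IL11 from the test, and the count of 9 from leaving out Schisandrin B replicate 1, which added IL11. In the 14 alternatives with a test against 2-fold, 5 genes passed. The log2 change of the summed CXCL1, CXCL2 and CXCL3 ranged from 0.51 to 0.66. With lengths from the reference exons in place of FPKM, the CXCL8 share differed between groups by 31.3 percentage points, in place of 30.6; the CXCL2 share differed by 2.93 points, in place of 3.27. Of the context genes outside the cell type marker lists, 43 to 49 were higher and 23 to 36 lower. In the main fit, 47 of these were higher and 32 lower, of 104 tested. Over all tested genes 35% were higher and 35.2% lower. When libraries were scaled by totals, upper quartiles or RLE factors, the median log2 change of all genes was at most 0.06 and 50.4% to 54.2% of calls were higher; with no low-count filter, on 33058 genes, they were 0.09 and 49.2%.

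Replicate numbers did not pair the libraries: deviations of same-numbered libraries correlated at 0.03, -0.05 and -0.01. With replicate number as a block, 8 of the 10 genes were higher, 0 lower and 5 past 2-fold, and the summed log2 change was 0.58. Of the context genes outside the marker lists 48 were higher and 31 lower, and 10975 genes were called in place of 11073.

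Depth limits IL6, IL1RN, IL33, CXCR1 and CXCR2, and 45 vehicle counts limit CXCL3.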
